A study of Homo sapiens with 20 samples.

Results

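Pyrimidine nucleotides reach RNA by 2 routes, and the 10 genes described here cover both. For salvage these are the nucleoside transporters SLC29A1 and SLC29A2 and the uridine kinases UCK1, UCK2 and UCKL1, for de novo synthesis they are CAD, DHODH and UMPS, and CMPK1 and CTPS1 act after both routes have met at UMP. They are 10 of the 19593 genes in the files, and the list was drawn up with earlier results of these data known: the lower total reads of UCK2 at 6 and 24 h and of SLC29A1 at 24 h under dCBP-30 had been seen. Both genes were therefore chosen by those values, and their levels at 6 and 24 h are given as a description with no test. The other 8 genes were listed for their role in the pathway. Each gene was read from the GENCODE transcript with the most reads summed over all libraries, whatever their group.

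The cells were MM1.S, an established multiple myeloma line of wild-type genotype, and all groups are that 1 line. Wild type does not mean a normal genome here, as the paper describes MAF overexpressed through an IgH rearrangement in this line. The cells were cultured for 2, 6 or 24 h with 10 nM dCBP-30 or with DMSO as vehicle. The compound dCBP-30 is a bifunctional degrader of the acetyltransferases CBP and p300. Each of the 6 groups has 3 libraries. For the last hour the cells of these 18 libraries were given 4-thiouridine (4sU), a uridine analogue, and another 2 libraries had none. In SLAM-seq the 4sU built into new RNA is alkylated and is then sequenced as C. Reads with such a change (T>C reads) mark RNA transcribed in the labelling hour above a background, and total reads hold older RNA as well. In the libraries without 4sU the members' shares of T>C reads were 0.149% (CAD) to 2.74% (UCKL1, 15 of 548 reads).

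Uridine from the medium enters cells through equilibrative nucleoside transporters and is phosphorylated to UMP by uridine-cytidine kinases. De novo synthesis makes the same UMP from small precursors, with CAD carrying out the opening steps, DHODH the oxidation at the mitochondrial inner membrane and UMPS the final step. CMPK1 converts UMP to UDP, and CTP synthase makes CTP from UTP. The label 4sU depends on the same uptake and phosphorylation as uridine, so UCK2 and SLC29A1 belong both to the biology and to the assay.

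The libraries held between 12439664 and 18727383 reads on genes, and 3 reads, the limit used for a count of 0, came to between 0.160 and 0.241 RPM before scaling. Levels are RPM, read counts scaled to 1000000 reads, with the library's total multiplied by its TMM factor, which corrects for the composition of the RNA. These factors were 0.873 to 0.962 in all groups but dCBP-30 at 6 h (1.12 to 1.14) and at 24 h (1.29 to 1.32). Without them the median gene of the total reads moved from 0.023 to 0.35 on the log2 scale at 6 h and from 0.054 to 0.58 at 24 h, so changes relative to the median gene are given where this matters. No source states that the 3 libraries of a group came from separate cultures on separate days, so p-values measure the spread between these libraries. Being shares of a library, levels cannot tell fewer cells from less RNA per cell. Per the study's methods, RNA of Drosophila cells given 4sU was mixed in as an external spike-in, which the levels here do not use. The 8 plasma cell markers were present under DMSO, with medians over the 9 libraries from 131 RPM for CD38 to 1563 RPM for MZB1. Their summed level under dCBP-30 was 4142 against 5968 RPM at 2 h, 1675 against 6205 at 6 h and 612 against 5130 at 24 h, with all 8 called lower at 24 h by edgeR. Of 5 markers of other cell types, EPCAM had no read and MS4A1 and LYZ had at most 9 and 11 in a library. COL1A1 had at most 29, and CD3E up to 286, with 12.9 ± 2.58 RPM under dCBP-30 against 5.27 ± 1.75 under DMSO at 24 h (SD, n = 3 each). The summed level of these 5 was 3.61 to 5.77 RPM in all groups but dCBP-30 at 24 h, where it was 14.6. The part of these shifts in the members' values was not tested.

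Among the members with an entry in the RefSeq promoter table (GRCh38.p14, 250 bases before to 50 after a start site), the E-box CACGTG was searched because it is a short motif bound by MYC and MAX, among other factors. The motif is its own reverse complement, so 1 search covers both strands, and every match is also a match to the looser CANNTG. It stood in 3 of 12 start site windows of 9 members (25.0%), in 7.26% of all 35116 promoters and in 9.42% of the 14414 promoters of genes tested in total reads. The 3 windows are printed with the motif in capitals, from the plus strand for SLC29A1 (chr6:44219365-44219387) and DHODH (chr16:72008573-72008602) and from the minus strand for UCKL1 (chr20:63956632-63956661).
SLC29A1: cagtgCACGTGctcccaggtctc
UCKL1: gggccctccaggCACGTGgcggaggctgcc
DHODH: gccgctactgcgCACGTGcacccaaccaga
The first base of the motif lay at -245, -233 and -159 relative to the start site. No match says only that these letters are not in the window, as for UCK2, CAD, CTPS1, UMPS, UCK1 and CMPK1. The other start site window listed for SLC29A1 and for UCKL1 also had no CACGTG, and which start the cells used was not examined. CANNTG stood in 83.3% of the members' windows, in 68.7% of all promoters and in 61.7% of those of genes tested in total reads. SLC29A2 has no entry in the table.

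SLC29A1 (ENSG00000112759, chr6:44233529-44234124, plus strand of hg38, 3′ UTR in 1 segment) encodes the equilibrative nucleoside transporter ENT1. Its total reads in the 3 DMSO libraries were 287, 332 and 365 RPM at 2 h, and 354, 332 and 312 RPM under dCBP-30, so the groups overlapped. The log2 fold change at 2 h was 0.02 (standard error, SE, 0.11; adjusted p = 0.95 by the quasi-likelihood test of edgeR over all genes). At 6 h the dCBP-30 libraries held 249, 265 and 266 RPM against 360.2, 343 and 358 RPM under DMSO, which is 1.36-fold lower, and the groups did not overlap. Relative to the median gene this was -0.47 on the log2 scale, and without TMM factors the value was -0.13. At 24 h the values were 66.8, 51.8 and 57.2 RPM against 315, 310.2 and 295 RPM, 5.23-fold lower. Every dCBP-30 library at 24 h lay far below every DMSO library and below every dCBP-30 library of the earlier times. In T>C reads SLC29A1 had 6.27 ± 1.17 RPM under dCBP-30 against 6.30 ± 1.74 under DMSO at 2 h (SD, n = 3 each), 4.27 ± 1.18 against 8.41 ± 1.99 at 6 h, and 1.72 ± 1.18 against 9.40 ± 2.04 at 24 h. The dCBP-30 libraries at 24 h rest on 39, 7 and 49 T>C reads. The library with 7 had a share of 0.743% of 942 reads, while the libraries without 4sU had 0.424% and 0.721%, so it was not apart from the background. With that background subtracted, the log2 value was -1.19 at 6 h and -2.46 at 24 h.

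SLC29A2 (ENSG00000174669, chr11:66362523-66363435, minus strand) encodes the related transporter ENT2. It had 9 reads in 1 dCBP-30 library at 6 h and 7 reads in 1 DMSO library at 24 h, and none in the other 18 libraries. No T>C read was counted for it. It was too low for a test, and no change could be detected at this depth. Its 3′ UTR overlaps the lncRNA B4GAT1-DT on the opposite strand.

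UCK2 (ENSG00000143179, chr1:165907824-165911608, plus strand), the uridine-cytidine kinase known for its high expression in tumours and not for its level in normal tissue, differed at 6 and 24 h and not detectably at 2 h. At 2 h its total reads were 125, 119 and 129.9 RPM under dCBP-30 and 111, 132 and 146 RPM under DMSO. The log2 fold change of total reads at 2 h was -0.06 (SE 0.14, adjusted p = 0.89 from edgeR), and that of T>C reads was -0.27 (SE 0.23, adjusted p = 0.58), with a 95% interval from -0.73 to 0.20. At 6 h total reads were 41.2, 43.5 and 49.1 RPM against 136, 115 and 120.0 RPM, which is 2.77-fold lower. At 24 h they were 17.3, 18.4 and 27.2 RPM against 139, 132 and 126 RPM, 6.32-fold lower. In T>C reads the fold differences were larger: 4.51 ± 0.217 against 22.5 ± 4.65 RPM at 6 h, 4.96-fold lower, and 2.62 ± 1.78 against 29.1 ± 2.76 RPM at 24 h, 11.1-fold lower (SD, n = 3 each). No dCBP-30 library reached the lowest DMSO library of its time point at 6 or 24 h. At 24 h the dCBP-30 libraries rest on 28, 30 and 87 T>C reads, and without the one with 87 (replicate 3) the log2 value moved from -3.47 to -4.19. Relative to the median gene, the T>C reads of UCK2 were lower by 2.04 at 6 h and 2.78 at 24 h on the log2 scale, where the median gene was at -0.27 and -0.69. Its total reads relative to their median gene were at -1.50 and -2.71. On this scale T>C and total reads of UCK2 were thus close to each other at 24 h. The share of UCK2 reads that were T>C reads was 14.9% ± 1.36 against 17.1% ± 0.645 at 2 h, 10.2% ± 1.04 against 18.03% ± 2.36 at 6 h and 11.7% ± 4.78 against 21.9% ± 1.06 at 24 h, and 0.697% and 0.776% in the libraries without 4sU.

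**Figure D1:**
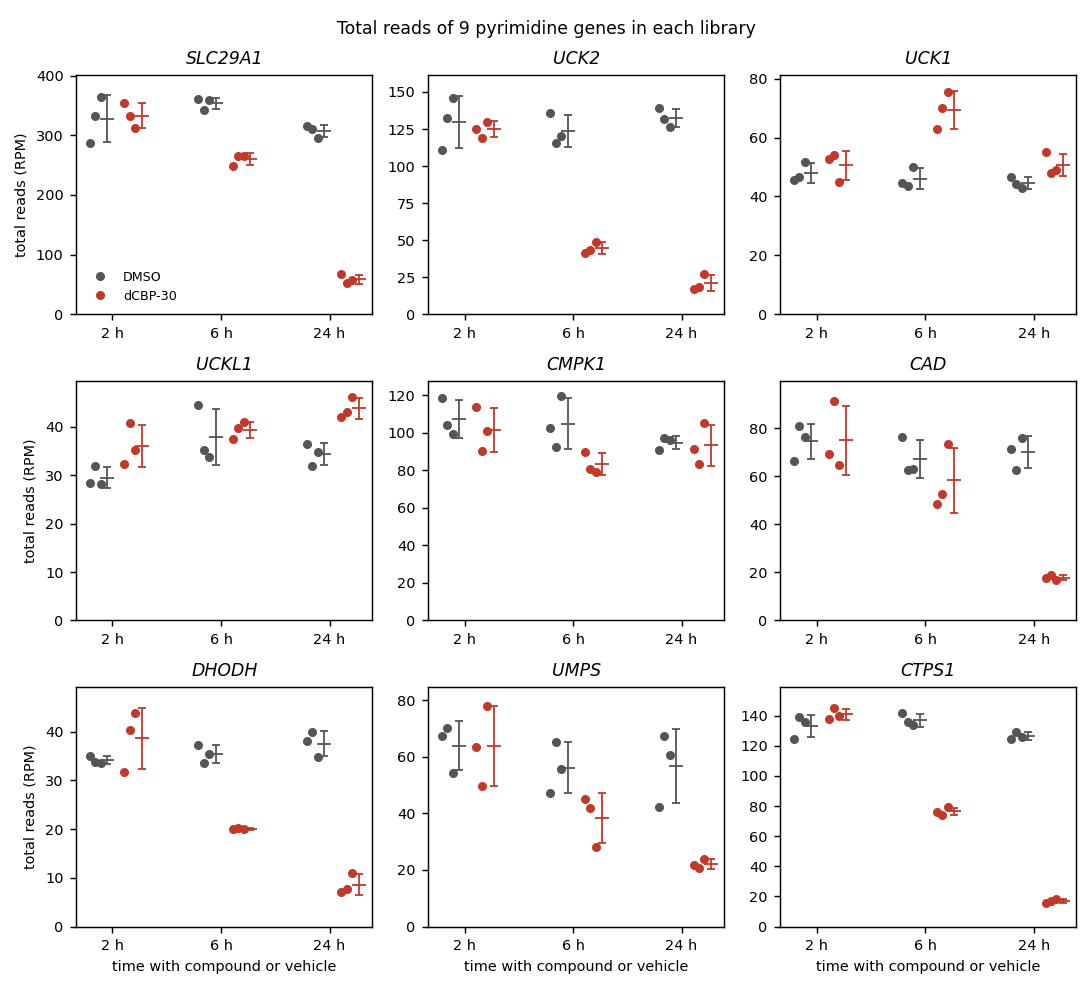
Total reads (RPM, y axis from 0) of the 9 measured genes in each of the 18 labelled libraries by time with dCBP-30 or DMSO; points are libraries and the bars show mean ± SD of 3. The dCBP-30 libraries of SLC29A1, UCK2, CAD, DHODH, UMPS and CTPS1 at 24 h lie below all DMSO libraries, while those of UCK1, UCKL1 and CMPK1 do not.

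The other kinases did not share this course. UCK1 (ENSG00000130717, chr9:131523801-131526491, minus strand, 3 segments) has the same enzymatic activity as UCK2 and is the more widely expressed of the pair in normal tissue. Its total reads at 6 h were 62.8, 69.9 and 75.6 RPM under dCBP-30 against 44.4, 43.5 and 50.02 RPM under DMSO, so every treated library lay above every vehicle library. Total reads of UCK1 rose by 0.595 on the log2 scale (SE 0.12, adjusted p = 3.6e-04 from edgeR), less than 2-fold, and by 0.57 relative to the median gene. At 24 h they were 50.7 ± 3.83 against 44.6 ± 1.94 RPM (SD, n = 3), a log2 fold change of 0.18 (SE 0.12, adjusted p = 0.20), and 0.70 with an adjusted p of 2.6e-05 when the TMM factors were left out, where the median gene was at 0.58. In T>C reads UCK1 had 2.81, 3.71 and 6.80 RPM against 1.06, 3.55 and 3.12 RPM at 6 h, and the groups overlapped (log2 fold change 0.78, adjusted p = 0.16). At 24 h its T>C reads were 2.98 ± 0.472 against 5.16 ± 1.76 RPM (-0.79, SE 0.39, adjusted p = 0.11). The transcript used for UCK1 is annotated as subject to nonsense-mediated decay. It held 15865 reads over the 20 libraries, and the protein-coding transcript with most reads held 15862, so the choice between them changed little. Its 3′ UTR, which begins at position 131523801, overlaps only the end of POMT1 on the opposite strand, at position 131523806. The sources used here do not state whether the counting used the strand.

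UCKL1 (ENSG00000198276, chr20:63939840-63940684, minus strand, 4 segments) encodes the uridine-cytidine kinase-like protein. Its total reads were 42.1, 43.1 and 46.3 RPM under dCBP-30 at 24 h against 36.5, 32.0 and 34.8 RPM under DMSO. They rose by 0.35 on the log2 scale (SE 0.14, adjusted p = 0.031 from edgeR), with no overlap between the groups and a change under 2-fold. Relative to the median gene this was 0.29, and without TMM factors the value was 0.87. The adjusted p ran from 0.056 to 0.12, with values from 0.29 to 0.36, when replicate 2 or 3 of either group was left out, and was 0.076 without the filter on low counts. At 2 and 6 h the log2 fold changes were 0.29 (adjusted p = 0.29) and 0.06 (adjusted p = 0.76). T>C reads of UCKL1 were few, between 7 and 65 in a library, and their log2 fold changes of 0.38, -0.64 and 0.36 at 2, 6 and 24 h had SEs between 0.54 and 0.57. The 95% interval at 24 h ran from -0.72 to 1.44, so neither a 2-fold rise nor its absence was shown.

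CMPK1 (ENSG00000162368, chr1:47376746-47378839, plus strand), the UMP/CMP kinase, is the enzyme through which both routes pass. Its total reads were 89.8, 80.5 and 79.3 RPM under dCBP-30 at 6 h against 103, 92.5 and 119.6 RPM under DMSO. They fell by 0.33 on the log2 scale (SE 0.12, adjusted p = 0.031 from edgeR), which is 1.26-fold. At 24 h the groups overlapped, with 93.2 ± 10.9 against 94.8 ± 3.42 RPM (SD, n = 3), and the log2 fold change was -0.02 with a 95% interval from -0.27 to 0.23. Without TMM factors that value was 0.497, where the median gene was at 0.58, and the one at 6 h was -0.02 (adjusted p = 0.92), where it was at 0.35. The adjusted p at 6 h also passed 0.05 without dCBP-30 replicate 2 (-0.31, adjusted p = 0.089), dCBP-30 replicate 3 (-0.30, 0.085) or DMSO replicate 3 (-0.23, 0.19). T>C reads at 24 h were 1.97, 2.97 and 2.84 RPM against 4.47, 4.29 and 4.64 RPM. Here the groups did not overlap, but the log2 fold change of -0.78 (SE 0.42, adjusted p = 0.14) did not pass the test and was close to the median gene's -0.69.

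CAD (ENSG00000084774, chr2:27243519-27243943, plus strand), DHODH and UMPS make up the de novo route, and none of the 3 passed the test at 2 h. For CAD the log2 fold changes at 2 h were -0.13 in T>C reads (adjusted p = 0.89 from edgeR) and 0.01 in total reads (adjusted p = 0.98). At 6 h its T>C reads were 1.496, 0.720 and 1.72 RPM against 6.08, 4.22 and 4.61 RPM. They fell by 1.92 on the log2 scale (SE 0.38, adjusted p = 5.4e-05), 3.79-fold. The dCBP-30 libraries at 6 h rest on 25, 13 and 28 T>C reads of CAD. Total reads of CAD at the same time were 48.5, 52.8 and 73.6 RPM against 76.5, 62.5 and 63.2 RPM and overlapped (-0.21, SE 0.15, adjusted p = 0.29). By 24 h total reads had followed, with 17.5, 19.0 and 16.8 RPM against 71.4, 62.8 and 75.9 RPM. They fell by 1.98 on the log2 scale (SE 0.16, adjusted p = 1.2e-10), and T>C reads fell by 2.27 (SE 0.37, adjusted p = 7.9e-07). Relative to the median gene, the T>C reads of CAD were at -1.65 at 6 h and -1.58 at 24 h. CAD was thus lower in new RNA at 6 h and in both kinds of reads at 24 h.

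DHODH (ENSG00000102967, chr16:72024200-72027659, plus strand) moved in total reads already at 6 h, with 19.99, 20.3 and 19.9 RPM under dCBP-30 against 37.2, 33.5 and 35.4 RPM under DMSO. This was a fall of 0.82 on the log2 scale (SE 0.16, adjusted p = 1.9e-04 from edgeR), which is 1.76-fold. At 24 h they were 7.07, 7.65 and 11.003 RPM against 38.0, 39.8 and 34.7 RPM, a fall of 2.13 (SE 0.17, adjusted p = 6.0e-11). T>C reads of DHODH at 24 h numbered 38, 0 and 27 in the dCBP-30 libraries against 67, 98 and 46 under DMSO. The fall in T>C reads was 1.93 on the log2 scale (SE 0.56, adjusted p = 0.0038), and it stood at -1.30 (adjusted p = 0.070) with libraries scaled by their T>C reads and at -1.87 (adjusted p = 0.066) with reads summed over transcripts. It was -2.62 without dCBP-30 24 h replicate 1, which had 38 T>C reads, and -1.35 without replicate 2, which had 0. The library with no T>C read had 139 reads of DHODH, and 0 of 139 allows a share of up to 2.16%, while in another dCBP-30 library 29.5% of 129 reads were T>C reads. Such limits cover counting error only, since reads without molecular identifiers are not independent molecules. At 6 h the T>C reads of DHODH were 1.10 ± 0.139 against 1.97 ± 0.706 RPM (-0.83, SE 0.57, adjusted p = 0.33). Relative to the median gene, the T>C value of DHODH at 24 h was -1.24 on the log2 scale.

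UMPS (ENSG00000114491, chr3:124731551-124744757, plus strand, 6 segments of a transcript annotated as subject to nonsense-mediated decay) makes UMP from orotate and was lower at 6 and 24 h. Total reads of UMPS were 45.1, 41.9 and 28.2 RPM against 47.3, 65.3 and 55.6 RPM at 6 h, and 21.8, 20.7 and 24.0 RPM against 42.2, 67.3 and 60.5 RPM at 24 h. They fell by 0.55 (log2) at 6 h (SE 0.19, adjusted p = 0.024 from edgeR) and by 1.35 at 24 h (SE 0.19, adjusted p = 1.7e-06). Without TMM factors the decrease at 24 h was 0.83 on the log2 scale, short of 2-fold, and the value at 6 h was -0.23 (adjusted p = 0.31). At 6 h it was -0.37 (adjusted p = 0.13) without dCBP-30 replicate 3, -0.42 (0.12) without DMSO replicate 2 and -0.55 (0.052) without DMSO replicate 3. T>C reads of UMPS were 4.12 ± 0.387 against 4.42 ± 1.17 RPM at 6 h and 3.22 ± 1.13 against 6.22 ± 0.704 RPM at 24 h (SD, n = 3 each). The latter fell by 0.95 (SE 0.34, adjusted p = 0.022), under 2-fold, and the value was -1.21 without dCBP-30 24 h replicate 3, -0.71 (adjusted p = 0.14) without dCBP-30 24 h replicate 2 and -0.85 (0.081) without DMSO 24 h replicate 2. Relative to the median gene, the change of T>C reads at 24 h was -0.26, and scaled by T>C reads it was -0.31 (adjusted p = 0.53).

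**Figure D2:**
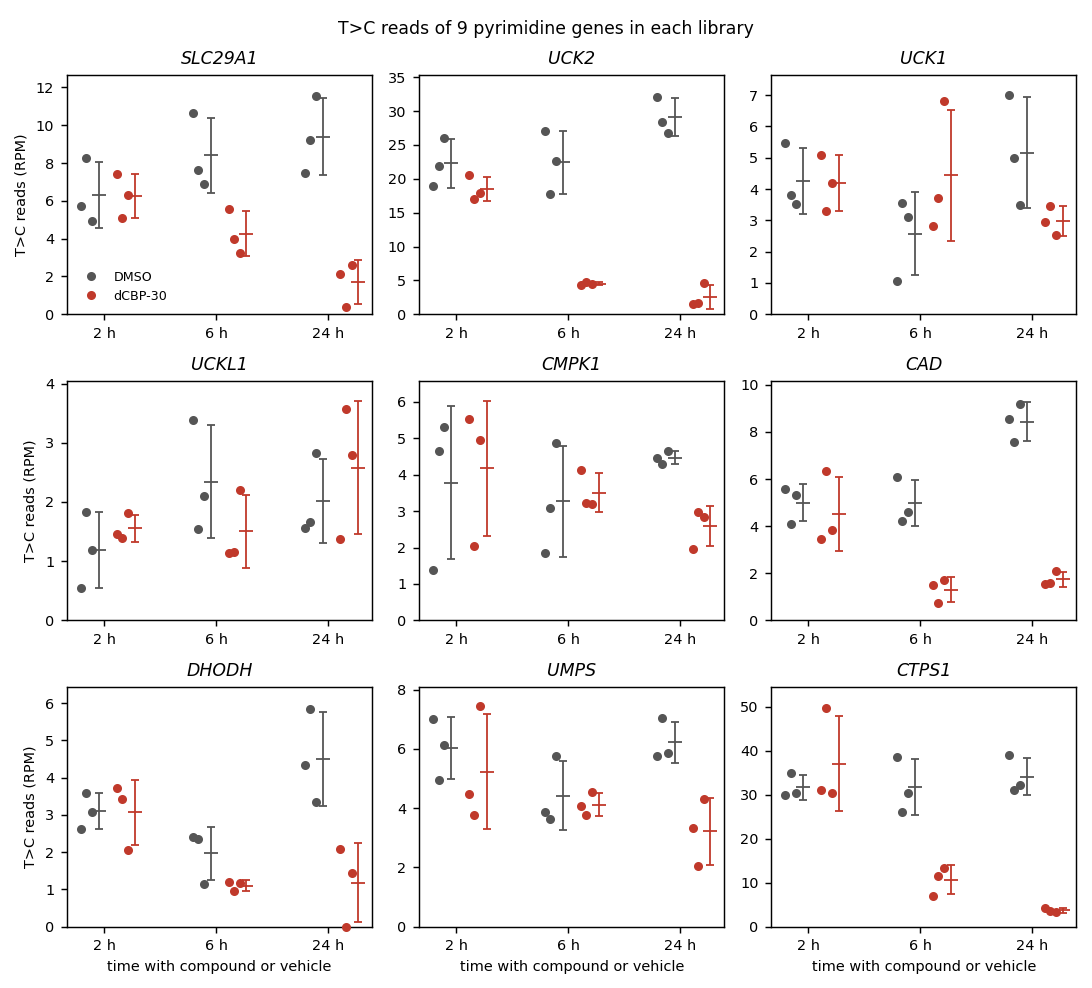
T>C reads (RPM of the scaled library total, y axis from 0) of the same 9 genes in the same libraries, with mean ± SD of 3 beside the points. CAD, CTPS1, UCK2 and SLC29A1 are lower under dCBP-30 at 6 and 24 h with no overlap, and 1 library of DHODH at 24 h is at 0.

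CTPS1 (ENSG00000171793, chr1:40999833-41012554, plus strand, 10 segments of a transcript annotated as subject to nonsense-mediated decay), the CTP synthase known for its role in dividing lymphocytes, had the lowest adjusted p of the tested members at 24 h. Its total reads were 138, 145 and 139.8 RPM against 125, 139 and 136 RPM at 2 h (0.08, SE 0.096, adjusted p = 0.74 from edgeR). At 6 h they were 76.1, 74.0 and 79.2 RPM against 142, 136 and 134 RPM, a fall of 0.84 on the log2 scale (SE 0.097, adjusted p = 1.3e-07). At 24 h they were 15.7, 17.3 and 18.03 RPM against 125, 129 and 126 RPM. Total reads of CTPS1 fell by 2.90 at 24 h (SE 0.11, adjusted p = 2.8e-17), 7.45-fold, and the libraries within a group differed by little. T>C reads were 31.1, 49.6 and 30.5 RPM against 29.9, 35.0 and 30.3 RPM at 2 h, with no detectable difference (0.23, SE 0.20, adjusted p = 0.58). They were 6.94, 11.5 and 13.4 RPM against 38.6, 26.1 and 30.4 RPM at 6 h, a fall of 1.58 (SE 0.21, adjusted p = 9.6e-09). At 24 h the values were 4.27, 3.63 and 3.22 RPM against 38.9, 31.1 and 32.2 RPM, a fall of 3.20 (SE 0.23, adjusted p = 3.8e-18) or 9.18-fold. Relative to the median gene, the T>C value at 24 h was -2.51 on the log2 scale. With the protein-coding transcript that had most reads, which was added as an alternative once the data had been seen, the T>C values of CTPS1 were -1.52 at 6 h (adjusted p = 8.1e-04) and -3.76 at 24 h (adjusted p = 2.0e-11). At 24 h T>C reads were still 22.0% ± 4.79 of CTPS1 reads under dCBP-30 and 27.0% ± 3.81 under DMSO (SD, n = 3), against 0.525% and 1.05% without 4sU, and the 2 groups overlapped.

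**Figure D3:**
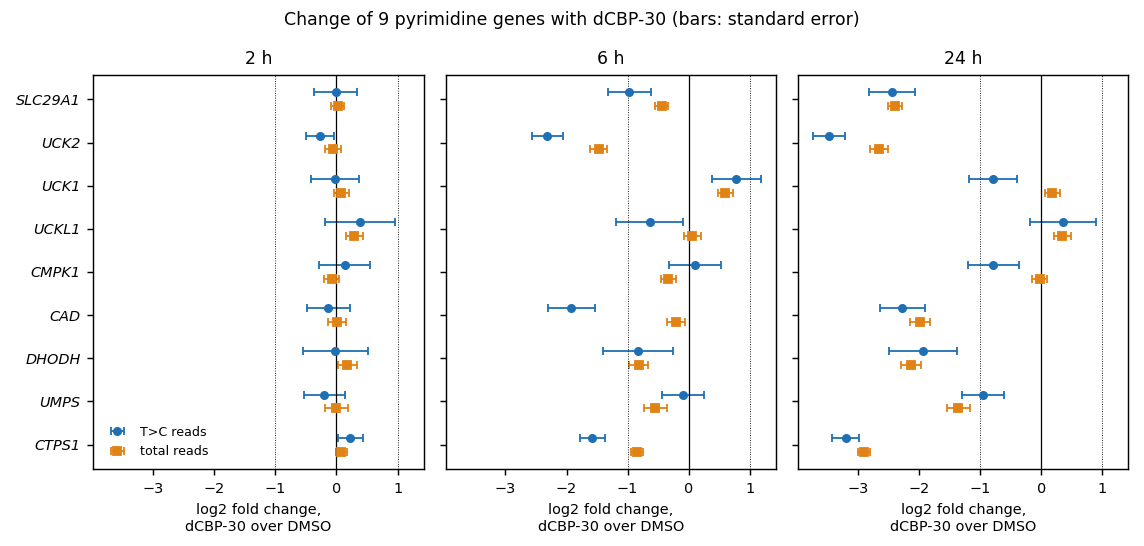
Log2 fold change of dCBP-30 over DMSO for the 9 measured genes at 2, 6 and 24 h, in T>C reads (circles) and total reads (squares), with bars of 1 standard error from the edgeR fit and dotted lines at a 2-fold change. At 2 h all values lie between the dotted lines; at 24 h CTPS1, UCK2, SLC29A1, CAD and DHODH lie beyond -1 in both kinds of reads.

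A gene was called when its adjusted p was under 0.05 and its change more than 2-fold. At 2 h none of the 9 tested members was called in T>C reads, where 7.14% of the 10083 genes tested were lower and 1.64% higher, and none in total reads, where 1.25% of 12267 were lower and 0.457% higher. At an unadjusted p under 0.05 the counts by edgeR were 0 in T>C reads and 1 (UCKL1, higher) in total reads, and DESeq2 also called 0. At 6 h, among the 7 members not chosen by their values, CAD and CTPS1 were called lower in T>C reads (2 of 7) and none higher, beside 17.1% lower and 2.36% higher of all genes. No member of these 7 was called in total reads at 6 h by edgeR or DESeq2, where 8.68% of genes were lower and 7.47% higher. At any size of change, 4 of the 7 (CMPK1, DHODH, UMPS and CTPS1) were lower, beside 21.5% of all genes, and UCK1 was higher, beside 18.8%. At 24 h, 3 of 7 were lower in T>C reads (CAD, DHODH and CTPS1), where 31.2% of all genes were lower and 2.18% higher, and 4 of 7 in total reads (those and UMPS), where 16.1% were lower and 15.0% higher. None was called higher at 24 h in either kind of reads by edgeR or DESeq2. At an unadjusted p under 0.05 that count was 0 in T>C reads and 1 (UCKL1) in total reads. The median log2 fold change over the 7 members was -0.64 at 6 h and -0.95 at 24 h in T>C reads, beside -0.27 and -0.69 over all genes, and -0.33 and -1.35 in total reads, beside 0.02 and 0.05. Over the 9 members at 2 h it was -0.02 in T>C reads, beside 0.04, and 0.02 in total reads, beside -0.003. With libraries scaled by their T>C reads, where the median gene was at -0.03 at 24 h, the 24 h values in T>C reads were nearer 0, with -1.62 for CAD, -2.54 for CTPS1, -2.83 for UCK2 and -1.81 for SLC29A1.

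The size of the change differed between time points for several members. For T>C reads the change at 24 h was lower than that at 2 h for CAD (by 2.14 on the log2 scale, SE 0.51, adjusted p = 8.8e-04 from edgeR's interaction test) and CTPS1 (by 3.42, SE 0.30, adjusted p = 5.9e-14), which is 2 of 7 members beside 25.9% of all genes with a difference in either direction. For total reads it was lower for CAD (by 1.99), DHODH (by 2.31), UMPS (by 1.35) and CTPS1 (by 2.98), 4 of 7 beside 41.1% of all genes, with the largest adjusted p of 2.5e-04 for UMPS. The DMSO libraries of 24 and 2 h, which also enter the comparisons with dCBP-30, give the drift without compound. None of the 7 members not chosen by their values was called between them by edgeR or DESeq2. Of all genes, 2.46% were called in T>C reads and 0.0571% in total reads. At an unadjusted p under 0.05 edgeR counted 1 member in T>C reads (CAD, higher at 24 h by 0.76, adjusted p = 0.17) and 0 in total reads. The largest of these differences in total reads was 0.22 on the log2 scale, for UCKL1. UCK2 and SLC29A1 are given as a description only, since their DMSO libraries at 24 h entered the values they were chosen by. They were at 0.39 and 0.57 in T>C reads and at 0.03 and -0.10 in total reads.

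Of 44 other genes of pyrimidine metabolism, listed from general knowledge with the members' results known, 32 were tested in T>C reads and 37 in total reads. At 2 h none was called by edgeR in either kind of reads, and at an unadjusted p under 0.05 there were 1 lower and 1 higher in T>C reads and 2 higher in total reads. At 6 h, 5 of 32 were lower in T>C reads, a share near the 17.1% of all genes, and none higher, with NME2 at -2.21 (SE 0.23, adjusted p = 9.8e-12), NME1 at -2.06 and DCTPP1 at -1.81. NME1 and NME2 encode nucleoside diphosphate kinases, which turn UDP into UTP. They lie side by side and are near copies of each other, so the split of reads between them is uncertain. DCTPP1 encodes a pyrophosphatase of dCTP. At 24 h, 16 of 32 were lower in T>C reads, beside 31.2% of all genes, led by RRM2 at -3.93 (SE 0.15, adjusted p = 6.3e-30), NME1 at -3.76 and TYMS at -3.74. RRM2 is a subunit of ribonucleotide reductase and TYMS makes dTMP, and both belong to the deoxynucleotide branch, in which 9 of 12 genes were lower in T>C reads, beside the same 31.2%, and 8 of 12 in total reads, beside 16.1%. At 6 h RRM2 had not fallen, with log2 fold changes of 0.19 in T>C reads (adjusted p = 0.34) and 0.83 in total reads (adjusted p = 7.8e-07), and TYMS was at -0.17 and 0.03. In total reads 3 of the 37 were higher at 6 h, a share near the 7.47% of all genes, and none lower, beside 8.68%. At 24 h, 16 of the 37 were lower, beside 16.1%, and 4 higher, beside 15.0%. The 4 were CTPS2, CMPK2, NME7 and RRM2B, named after their values were seen. CTPS2, the second CTP synthase, had 4.28 ± 1.70 against 0.598 ± 0.171 RPM at 24 h (SD, n = 3), a rise of 2.81 on the log2 scale (SE 0.74, adjusted p = 0.0021) that rests on 43 to 104 reads in the dCBP-30 libraries and 6 to 13 under DMSO. The median over the list was -0.08, -0.35 and -1.65 in T>C reads and -0.04, -0.18 and -0.65 in total reads at 2, 6 and 24 h.

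The labelling of whole libraries was set beside the genes for uptake and phosphorylation of 4sU, with conversions per T>C read, the number of T>C conversions counted over T>C reads, as the measure. The dCBP-30 libraries held 2.17 ± 0.053 against 2.19 ± 0.024 in DMSO libraries at 2 h, 2.24 ± 0.030 against 2.16 ± 0.041 at 6 h, and 1.47 ± 0.043 against 2.48 ± 0.025 at 24 h (SD, n = 3 each), with 0.923 and 0.913 without 4sU. At 6 h, when UCK2 was 2.77-fold lower and SLC29A1 1.36-fold lower in total reads (-0.13 on the log2 scale without TMM factors for SLC29A1), the dCBP-30 libraries did not have fewer conversions per T>C read. At 24 h, when the 2 genes were 6.32-fold and 5.23-fold lower, the groups were apart, with all dCBP-30 libraries under all DMSO libraries. The shares of T>C reads in the libraries were 5.54% ± 0.138 against 6.08% ± 0.0776 at 2 h, 4.98% ± 0.285 against 6.38% ± 0.181 at 6 h and 6.38% ± 0.475 against 8.31% ± 0.266 at 24 h, and 0.794% and 0.809% without 4sU. The part of UCK2 and SLC29A1 in the labelling was not tested, and 4sU and the 2 proteins were not measured in these libraries.

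**Figure D4:**
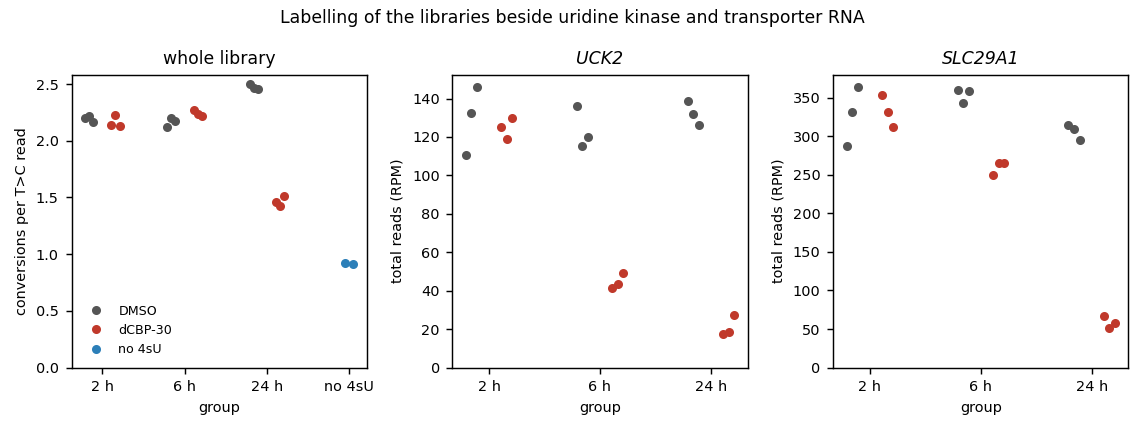
Conversions per T>C read of each whole library (left) and total reads (RPM) of UCK2 (middle) and SLC29A1 (right) by time and treatment, 1 point per library, each y axis from 0. At 6 h UCK2 is lower under dCBP-30 and conversions per T>C read are not, and at 24 h all 3 measures are lower. The share of T>C reads in the libraries, which was lower at 6 h, is not plotted.

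The members' own reads showed the same shift at 24 h. Where all libraries of the time point held 50 or more T>C reads of a gene, only CTPS1 could be read at 24 h, and its conversions per T>C read were below those of all DMSO libraries in all dCBP-30 libraries (1.59 ± 0.334 against 2.41 ± 0.291), as for 93.7% of such genes. With at least 20 T>C reads it was 6 of 7 members, beside 85.4% of genes. The 6 were UCK2, UCK1, CMPK1, CAD, UMPS and CTPS1, and the exception was UCKL1 (1.54 ± 0.564 against 2.46 ± 0.663). UCK2 had 1.499 ± 0.211 against 2.86 ± 0.0442. At 2 h, UMPS and CTPS1 were lower among 4 members with at least 50 T>C reads, beside 6.99% of genes, and at 6 h 0 of 4, beside 4.77%. The part of fewer conversions per T>C read in the members' T>C values at 24 h was not tested. Total reads are counted with or without a conversion. In them UCK2, SLC29A1, CAD, DHODH, UMPS and CTPS1 were each more than 2-fold lower at 24 h, UMPS only with TMM factors.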

How the data were processed

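SLAM-seq was carried out on 20 libraries of MM1.S cells, 18 with and 2 without 4sU. Per the study's methods, reads were trimmed with Trim Galore, mapped to 3′ UTRs of hg38 and counted with Slamdunk. The authors deposited raw counts per transcript (reads, T>C reads, conversions, covered T positions), with no normalization and no pooling. How they scaled T>C reads is not given in the sources used here. Of 97466 transcript rows, 91.4% had their identifier in GENCODE 44, and the unmatched rows held 0.0789 to 0.199% of the reads. A gene took its transcript with the most reads. Multimapping reads were at most 0.927% of any member's reads.

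Tests used edgeR 4.0.16 in R 4.3.3, with a robust quasi-likelihood fit of the 18 labelled libraries, 1 mean per group, filterByExpr with a minimum count of 10, offsets from total reads times TMM factors, and Benjamini-Hochberg adjustment over all genes tested (10083 for T>C reads, 12267 for total reads). Intervals are at 95%. Changes at 2 time points were compared as interactions. Libraries of a group differed by more than sampling noise (chi-square per degree of freedom 8.36 to 47.5). The fit was tested on simulated data, for T>C reads without the TMM factors of the reported fit, and the outcome is not given here.

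The members and lists were chosen with earlier results of these data known. All 10 members are named. Of the other pyrimidine genes, the 3 largest decreases and increases of T>C reads among genes that were called and averaged 20 or more T>C reads in the higher group are named for each time point. Alternatives were scaling by T>C reads, no TMM factors, DESeq2 1.42.0, no filter, reads summed over transcripts, subtraction of the background without 4sU, a replicate block, leaving out each library, and, chosen after seeing the data, the protein-coding transcript with most reads. Protein sequences were not analysed here, and 1 marker gene is not reported here.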

Additional observations from a re-analysis of the deposited data

Results flagged for a closer look

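The change under dCBP-30 differed between time points in several members, by edgeR's interaction test with an adjusted p under 0.05, and these differences are given on the log2 scale. Such differences were common: between 24 and 2 h, 25.9% of all genes had one in T>C reads and 41.1% in total reads. For the other pairs of time points the share over all genes is not given here, so those calls cannot be set against it. CTPS1 differed in each comparison. In T>C reads its change at 24 h minus that at 2 h was -3.42, at 6 h minus 2 h -1.80 and at 24 h minus 6 h -1.62, with the largest adjusted p of 5.7e-05. In total reads these differences for CTPS1 were -2.98, -0.92 and -2.06, with the largest adjusted p of 1.8e-05. With the protein-coding transcript the difference of T>C reads between 6 and 2 h was -1.48 (adjusted p = 0.054).

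CAD differed in T>C reads by -2.14 between 24 and 2 h (adjusted p = 8.8e-04) and by -1.79 between 6 and 2 h (adjusted p = 0.019), and in total reads by -1.99 between 24 and 2 h and -1.77 between 24 and 6 h (largest adjusted p = 6.0e-07). The difference of T>C reads between 6 and 2 h was -1.47 (adjusted p = 0.10) without dCBP-30 2 h replicate 2, -1.67 (0.056) without DMSO 2 h replicate 2, -1.50 (0.085) without dCBP-30 6 h replicate 2 and -1.62 (0.063) without DMSO 6 h replicate 1. It was -1.49 (0.085) scaled by T>C reads and -1.58 (0.067) without TMM factors.

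DHODH differed in total reads by -2.31 between 24 and 2 h, -0.999 between 6 and 2 h and -1.31 between 24 and 6 h (largest adjusted p = 0.0023). UMPS differed in total reads by -1.35 between 24 and 2 h (adjusted p = 2.5e-04) and by -0.81 between 24 and 6 h (adjusted p = 0.023). Leaving out 1 of 6 libraries ended the latter call, namely dCBP-30 6 h replicates 1 and 2, DMSO 6 h replicate 1, dCBP-30 24 h replicate 2 and DMSO 24 h replicates 2 and 3, with values from -0.76 to -0.67 and adjusted p from 0.052 to 0.075, and so did leaving out the TMM factors (-0.60, adjusted p = 0.077).

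UCK1 was the member with a difference in the other direction, 0.52 in total reads between 6 and 2 h (adjusted p = 0.040). It lost the call without any of 10 libraries, with values from 0.45 to 0.55 and adjusted p from 0.050 to 0.11, under the replicate block (0.52, adjusted p = 0.062) and without the filter (0.52, adjusted p = 0.099). Groups of 3 libraries were not tested for outlying libraries.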

How the results depend on the processing

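Over the 9 measured members, 2 kinds of reads and 3 time points, 943 of 972 values with a library left out and 354 of 378 under the other alternatives kept their direction and stayed called or not called (adjusted p under 0.05 and more than 2-fold). These counts include UCK2 and SLC29A1 at 6 and 24 h, which were chosen by their values. They also include leaving out libraries of other time points, which could move a comparison only through the shared spread, scaling and filter. The counts therefore overstate how stable the calls are. Of the tested values with an adjusted p under 0.05 at any size of change, 12 of 288 with a library left out and 9 of 108 under the other alternatives passed above 0.05, all of them for CMPK1, UCKL1, UMPS or DHODH. Those not yet given are UMPS in T>C reads at 24 h without TMM factors (-0.43, adjusted p = 0.38, edgeR), with the background subtracted (-0.89, 0.065) and with the protein-coding transcript (-0.87, 0.059). All values that changed sign had an adjusted p above 0.05 in the fit reported, and the cause was not tested beyond the settings themselves. Without TMM factors, T>C reads at 2 h gave 0.088 for DHODH, 0.095 for SLC29A1 and 0.076 for UCK1, and total reads 0.024 for CMPK1, 0.050 for UCK2 and 0.09999 for UMPS at 2 h, 0.11 for CAD at 6 h and 0.497 for CMPK1 at 24 h (adjusted p = 7.2e-04, edgeR). UMPS in T>C reads at 6 h was 0.22 without TMM factors and 0.21 scaled by T>C reads. Summed over transcripts, T>C reads at 2 h gave 0.012 for DHODH, 0.060 for SLC29A1 and 0.12 for UMPS, and total reads -0.015 for CTPS1. With the protein-coding transcript, T>C reads at 2 h gave -0.038 for CTPS1 and 0.034 for UMPS, and total reads -0.028 for CTPS1.

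With each library left out in turn, T>C reads at 2 h ranged from -0.45 to 0.026 for CAD, -0.26 to 0.46 for CMPK1, -0.043 to 0.35 for CTPS1, -0.17 to 0.21 for DHODH, -0.16 to 0.23 for SLC29A1 and -0.19 to 0.19 for UCK1, and at 6 h from -0.18 to 0.51 for CMPK1 and -0.23 to 0.13 for UMPS. Total reads ranged at 2 h from -0.16 to 0.11 for CAD, -0.067 to 0.10 for SLC29A1, -0.16 to 0.039 for UCK2 and -0.18 to 0.15 for UMPS, at 6 h from -0.016 to 0.19 for UCKL1 and at 24 h from -0.12 to 0.047 for CMPK1. UMPS in T>C reads at 24 h passed 2-fold without dCBP-30 24 h replicate 3 (-1.21) and without DMSO 24 h replicate 1 (-1.003). Scaled by T>C reads or summed over transcripts, CTPS1 in T>C reads at 24 h was -2.54 and -3.82.

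Among counts, 1 member (UCK1) was called higher in T>C reads at 6 h when scaled by T>C reads (1.07, adjusted p = 0.046) or without TMM factors (1.10, adjusted p = 0.042), against 0. Of all genes, 520 of 10051 were called higher with the first setting and 525 of 10112 with the second. In the fit reported it was 238 of 10083, so such calls were more common over all genes under both settings. For differences between 6 and 2 h in T>C reads the number lower was 1 in place of 2 under either scaling and with the protein-coding transcript, and 1 to 2 with a library left out. Between 24 and 6 h in T>C reads it was 2 under DESeq2 in place of 1, and 1 to 2 with a library left out. In total reads the number higher was 2 between 24 and 2 h and 1 between 24 and 6 h without TMM factors, against 0 in both, and between 6 and 2 h it was 0 without the filter and under the replicate block, against 1, and 0 to 1 with a library left out. For these differences between time points the share of all genes under each setting is not given here, so the counts cannot be set against it. With at least 20 in place of 50 T>C reads, 6 members in place of 1 lay lower in conversions per T>C read in all dCBP-30 libraries at 24 h, since more members could be read.

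Replicate numbers did not pair the libraries, with correlations of same-numbered deviations from -0.246 to 0.0631. With the replicate block UMPS at 2 h in total reads was 0.00055, and at 24 h its T>C reads passed 2-fold (-1.01, adjusted p = 0.013). That made 4 members in place of 3 lower in T>C reads at 24 h, and the block changed no other count of members called at a time point. Of all 10083 genes, 3117 were called lower in T>C reads at 24 h with the block and 3145 in the fit reported. Depth limits UCKL1, CMPK1 and DHODH in T>C reads, with counts of 0 to 98 in a library. Counts were also low for CAD under dCBP-30, with 13 to 28 at 6 h and 28 to 39 at 24 h. UCK1 had 15 in DMSO 6 h replicate 1.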
